A study of Mus musculus with 13 samples.

Results

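The cortex of wild-type (WT) mice given distilled water was described from 6 poly(A) RNA-seq libraries, chosen by their labels (WT cortex, control, water) out of 13 in the series. The series as a whole profiled cortices in a study of trazodone, an antidepressant, in APP/PS1 mice, a transgenic model of amyloid deposition. The APP/PS1 libraries enter no value here. All 6 libraries are labelled with the WT genotype and a treatment of distilled water. Their titles mark them as controls at 2 weeks, and they are named WT water 1 to WT water 6 by the replicate number in the title. The mice were perfused with cold buffered saline and the cortex of the right hemisphere was dissected for RNA. The sources used here do not give strain, age or sex, nor whether each library came from a separate animal. The spread between libraries may therefore be partly technical. No second group was compared and no test between groups was made: each value is a mean ± SD over the 6 libraries unless the values of the libraries are given. The unit is TPM, a share of all transcripts that is scaled by gene length and so allows levels to be set side by side between genes.

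The neocortex is a layered sheet of glutamatergic projection neurons and GABAergic interneurons, supported by astrocytes, oligodendrocytes, microglia and a dense vascular bed. Projection neurons send axons within the cortex and to the striatum, thalamus and brainstem, and interneurons shape their firing locally. RNA of a whole dissected cortex is a mixture of all these cells, so a gene's level reflects both how many cells carry it and how much RNA each holds. In such a mixture fewer cells of a type and less RNA per cell cannot be told apart, and marker RNA is not a share of cells.

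Estimated depth was 33.01 ± 0.383 M fragments per library. The pairs of libraries had Pearson correlations of log2(TPM + 0.5) across genes between 0.973 and 0.985 (15 pairs, median 0.981), a description in which genes are not independent replicates. WT water 6 stood apart. Its mean correlation with the other libraries was 0.977, against 0.981 to 0.982 for each of the others, and 353 genes lay more than 1 log2 unit from their mean in it, against 196 to 234 in the others. The first principal component of the deviations held 30.8% of their variance, with loadings of 0.78 on WT water 6, -0.47 on WT water 2 and -0.27 to 0.20 on the others. WT water 6 also had the lowest slope of log2 level on the GC content of the transcripts, -0.0855 per 10 percentage points, while the others ranged from -0.0233 to 0.0610. For a part of the levels, shares and leading members that WT water 6 moved, the value of each library or the value without it is given. All other means below include WT water 6.

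The labelled tissue matched its defining markers. Slc17a7, the vesicular glutamate transporter of cortical neurons, was at 851 ± 96.99 TPM. Tbr1, a transcription factor of deep-layer neurons, was at 113 ± 11.9 TPM. Markers of neighbouring regions were also read. The 14 striatal markers had a median of 43.9 TPM, above the median of the 9 measured layer 5 markers, 41.6 TPM, in 3 of 6 libraries. Some of them, such as Penk and Tac1, are also made by cortical neurons, and the part of striatal tissue in these values was not tested.

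The files listed 53832 entries, of which 20633 were at 0 TPM in all 6 libraries. A library held 16575 ± 154 entries at 1 TPM or more, 10369 ± 106 at 10 TPM or more, 1904 ± 55.5 at 100 TPM or more and 70.8 ± 6.05 at 1000 TPM or more. The count at 1 TPM ran from 16445 in WT water 3 to 16835 in WT water 6. Abundance was concentrated in few genes. The 10 most abundant entries of a library took 12.8 ± 1.74% of its TPM, the 100 most abundant 26.4 ± 1.77% and the 1000 most abundant 54.6 ± 1.06%. In a library 755 ± 56.5 entries were enough to reach 50%. The share of the top 10 was highest in WT water 6 (15.1%) and WT water 4 (14.8%) and lowest in WT water 2 (11.1%). Nuclear protein-coding genes held 80.2 ± 2.07% of TPM, genes of the mitochondrial genome 10.3 ± 1.39%, pseudogenes 5.42 ± 0.680% and long noncoding genes 1.91 ± 0.0444%. Ribosomal protein genes, a part of the protein-coding share, held 3.04 ± 0.130%.

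The 20 most abundant entries were 9 entries of the mitochondrial genome, 4 nuclear copies of mitochondrial genes on chromosome 1, 1 ribosomal RNA entry (CT010467.1, 5047 ± 1461 TPM) and 6 nuclear protein-coding genes. Cytochrome c oxidase's catalytic subunit mt-Co1 led with 26581 ± 3801 TPM, followed by mt-Nd4l, a complex I subunit (14537 ± 2229.6 TPM), and mt-Cytb, the cytochrome b of complex III (13782 ± 2050.0 TPM). The complex I gene mt-Nd4, which overlaps mt-Nd4l and lies 198 bases from mt-Nd5, had no entry, and whether the levels of these 2 genes hold its reads was not tested. Next were other complex I subunits, mt-Nd1 (11725 ± 1143 TPM), mt-Nd2 (7969 ± 949.9 TPM), mt-Nd5 (4791 ± 857 TPM) and mt-Nd6 (5044 ± 961 TPM). The mitochondrial ribosomal RNAs mt-Rnr1 (6243 ± 1019 TPM) and mt-Rnr2 (4856 ± 898 TPM) completed the mitochondrial entries. The mitochondrial share of TPM was 12.3% in WT water 6, 11.9% in WT water 4 and 9.07% to 10.2% in the other 4 libraries.

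The 4 nuclear copies lie side by side on chromosome 1 and match mitochondrial genes nearly base for base (GRCm38, GENCODE M21). Gm10925 (chr1:24613974-24614651, minus strand, 678 bases) is identical to mt-Atp6 over its whole length, Gm28661 (chr1:24614885-24615565, 681 bases) to mt-Co2 and Gm28437 (chr1:24613189-24613971, 783 bases) to mt-Co3. In contrast, Gm29216 (chr1:24615706-24616197, 492 bases) differs from mt-Co1 at 6 of 492 bases. The copies averaged 13099 ± 2335 TPM (Gm29216), 12900.2 ± 1989.6 TPM (Gm10925), 11345 ± 1594 TPM (Gm28661) and 9618 ± 1210.3 TPM (Gm28437). The mitochondrial genes they equal were nearly empty or absent from the tables: mt-Co2, a core subunit of cytochrome c oxidase, was at 113 ± 85.6 TPM, and mt-Atp6 and mt-Co3 had no entry. Reads of such identical sequences cannot be assigned by sequence, so the levels of these 4 copies and of the mitochondrial genes they equal are uncertain as levels of either locus. With the copies added, the mitochondrial share was 15.04 ± 2.09% of TPM. The stretch with all 6 differences is shown with the differing bases in capitals, followed by the start of an identical pair, all 5′ to 3′ from GENCODE M21 transcripts:
mt-Co1 (within chrM:5328-6872): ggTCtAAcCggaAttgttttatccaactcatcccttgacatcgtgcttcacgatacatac
Gm29216 (bases 1 to 60): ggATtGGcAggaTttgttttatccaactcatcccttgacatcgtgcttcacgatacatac
mt-Co2 (chrM:7013-7696, bases 1 to 60): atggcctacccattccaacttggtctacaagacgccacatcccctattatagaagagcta
Gm28661 (bases 1 to 60): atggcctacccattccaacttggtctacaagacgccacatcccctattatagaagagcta

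Of the nuclear protein-coding genes, the 6 in the top 20 were Eef1a1, Fth1, Snap25, Cst3, Calm2 and Cpe. Eef1a1, the elongation factor that brings aminoacyl-tRNA to the ribosome, had 3007, 3168 and 3458 TPM as its lowest, median and highest library. Fth1, the heavy chain of the iron store ferritin, had 2718, 3088 and 3530.3 TPM, and Snap25, a SNARE protein of synaptic vesicle fusion, had 2735, 2976 and 3150.2 TPM in the same order. The lowest and highest libraries of Eef1a1 and Snap25 thus lay within 1.15-fold of each other, and those of Fth1 within 1.30-fold. Cst3, the secreted protease inhibitor cystatin C, averaged 2742 ± 166 TPM. It has a merged model ID and its neighbour 9230104L09Rik, 6684 bases away, has no entry, but whether the model joins them was not tested. Calm2, a calmodulin gene, averaged 2505 ± 266 TPM, and Cpe, the carboxypeptidase that trims neuropeptide precursors, 2488 ± 107 TPM. Next in rank, outside the naming rule and named after their values were seen, came the brain creatine kinase Ckb (2420.0 ± 94.7 TPM) and the postsynaptic calmodulin-binding protein Nrgn (2065 ± 494 TPM). They were followed by the tubulin Tuba1b (2003 ± 191 TPM), the aldolase Aldoa (1990.5 ± 168 TPM) and the prostaglandin D synthase Ptgds (1914 ± 307 TPM). Nrgn stands out among them for its spread, with 2234, 2715, 2364, 1999, 1782 and 1294 TPM in WT water 1 to 6: the highest library had 2.10-fold the lowest. The lists of the 100 most abundant entries of the 6 libraries shared 79 entries, with 125 in any library and 83 to 95 shared by any pair. Some of these entries may hold more than 1 gene: Tuba1b is a merged transcript model, and its neighbour Tuba1a has no entry of its own.

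**Figure D1:**
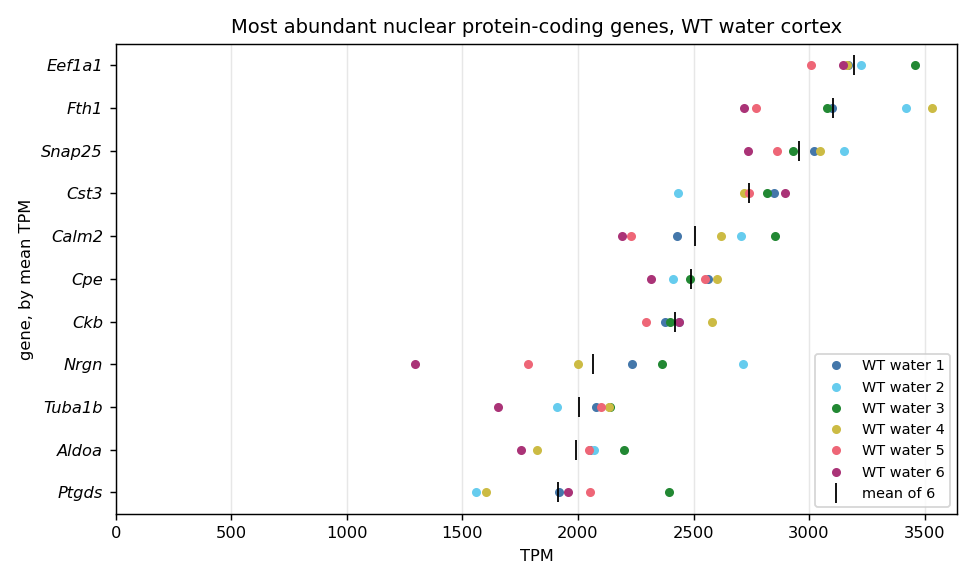
TPM of the 11 most abundant nuclear protein-coding genes (1 row each, in order of mean) in each WT water library (coloured points), with the mean over the 6 libraries as a black bar. The points of Eef1a1 lie between 3007 and 3458 TPM, while those of Nrgn run from 1294 in WT water 6 to 2715 in WT water 2.

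Marker genes of neurons gave the highest class level. The 10 pan-neuronal markers had a median of 399 TPM, led by Snap25, by the deubiquitinase Uchl1 (1024 ± 75.7 TPM) and by the neuronal enolase Eno2 (829 ± 82.5 TPM, in a merged model whose neighbour Atn1 has no entry). The lowest was the RNA-binding protein Elavl4, at 69.1 ± 3.44 TPM. Their summed level was 7258 ± 392 TPM and its coefficient of variation 5.40%. In WT water 6 only 1 of the 10 lay above its own mean over the libraries, against 4 to 8 of 10 in the others. Here and below, such counts, and counts of markers highest in a library, stand without the share of all genes that did the same there. They do not show that a list differed from other genes.

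Excitatory markers reached a median of 113 TPM over 11 measured of 12 listed genes (Neurod1 had no entry). Nrgn, Camk2a, the calcium/calmodulin-dependent kinase of the postsynaptic density (1348 ± 90.7 TPM), and Slc17a7 led the list. Slc17a6, the vesicular glutamate transporter of thalamus and other subcortical regions, was its lowest member at 19.8 ± 4.74 TPM. The summed level was 5256, 5743, 5195, 4977, 4990.3 and 3833 TPM in WT water 1 to 6, highest in WT water 2 and lowest in WT water 6. The 16 inhibitory markers had a median of 79.9 TPM, with the neuropeptide Sst (644 ± 64.4 TPM) and the GABA-synthesising enzyme Gad1 (348 ± 73.8 TPM) on top. Adarb2, an RNA-binding protein of caudally derived interneurons, was lowest (8.998 ± 2.69 TPM). In WT water 6, 9 of these 16 markers had their highest value. Gad1 was at 494 TPM there and at 293 to 344 TPM in the others. In that library the excitatory list lay 0.30 below and the inhibitory list 0.28 above its mean on the log2 scale.

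Layer markers differed in level. The 8 markers of layer 2/3 had a median of 71.6 TPM, led by Enpp2, Lamp5 (203 ± 40.4 TPM) and Rasgrf2 (128 ± 13.7 TPM), with the POU-domain factor Pou3f2 lowest (16.4 ± 1.96 TPM). Enpp2, which encodes autotaxin, is also made by oligodendrocytes and choroid plexus. It had 194, 172, 254, 157, 149.8 and 491 TPM in WT water 1 to 6, highest in WT water 6. Without WT water 6, Lamp5 led the list with 213 ± 36.0 TPM and Enpp2 averaged 185 ± 42.0 TPM. The 6 layer 4 markers had a median of 14.8 TPM, from the copine Cpne9 (50.3 ± 8.27 TPM), Whrn (37.02 ± 5.69 TPM) and the secreted Wnt agonist Rspo1 (16.6 ± 4.61 TPM) downward. The sodium channel subunit Scnn1a was lowest (4.33 ± 0.720 TPM). Layer 5 markers had a median of 41.6 TPM, with the thyroid-hormone-binding protein Crym (111 ± 16.4 TPM), Sulf2 (65.5 ± 6.83 TPM) and Ldb2 (50.3 ± 8.07 TPM) highest and Tmem200a lowest (12.4 ± 1.19 TPM). Layer 6 markers had a median of 24.9 TPM, with Tbr1, the nuclear receptor Nr4a2 (58.4 ± 12.8 TPM) and the corepressor Tle4 (37.7 ± 1.83 TPM) highest and the forkhead factor Foxp2 lowest (5.03 ± 1.55 TPM). Of these 4 genes Tle4 was the most even, at 34.8, 37.8 and 39.9 TPM as its lowest, median and highest library.

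Among the interneuron subtype genes, the neuropeptide Cck was highest at 824 ± 139 TPM, followed by Sst and by Lamp5, a marker of neurogliaform cells. Pyramidal cells also make Cck. Chodl, a marker of long-range somatostatin cells, was the lowest of the 14, at 1.46 ± 0.174 TPM. The median of the list was 36.2 TPM with all libraries and 29.5 TPM without WT water 6. Calb2, the calcium-binding protein calretinin, had 25.96, 24.7, 25.2, 25.7, 42.9 and 102 TPM in WT water 1 to 6, highest in WT water 6 and next in WT water 5. Its mean was 28.9 ± 7.85 TPM without WT water 6.

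By their medians, astrocyte and oligodendrocyte markers lay between the pan-neuronal and the excitatory markers. By summed level the order differed, with the excitatory list at 4999, the oligodendrocyte list at 3141 and the astrocyte list at 2865 TPM. Astrocyte markers had a median of 152 TPM over 13 measured of 15 listed genes (Aldh1l1 and Glul had no entry). The microRNA entry Mir8114, at 1630 ± 356 TPM, is a merged model that overlaps Glul. Whether its level holds Glul reads was not tested. Of the measured genes, the glutamate transporter Slc1a2 (599 ± 52.4 TPM), the aldolase Aldoc (565 ± 57.5 TPM) and the sodium pump subunit Atp1b2 (483 ± 23.8 TPM) led. The transcription factor Sox9 was lowest (28.5 ± 1.89 TPM). The summed astrocyte level varied by 4.71% between libraries, the lowest coefficient of variation of the 24 classes. Oligodendrocyte markers had a median of 123 TPM. Their leading genes were those of compact myelin. The myelin basic protein gene Mbp had 836, 1078, 900.4, 793, 774 and 527 TPM in WT water 1 to 6. Mobp, another myelin protein gene, had 696, 842, 658, 714, 618 and 443 TPM. WT water 2 was the highest and WT water 6 the lowest library for both genes. Over the list, 12 of 14 markers were highest in WT water 2, all 14 lay below their mean in WT water 6, and the lowest member, the aspartoacylase Aspa, averaged 20.6 ± 1.62 TPM. Precursor cell markers had a median of 24.9 TPM, with the proteoglycan Cspg5 (215 ± 14.05 TPM, also made by astrocytes and neurons), Olig1 (159 ± 16.7 TPM) and Sox10 (42.4 ± 8.17 TPM) highest. The proteoglycan Vcan was lowest (5.36 ± 0.987 TPM).

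Microglial markers had a median of 17.8 TPM over 16 genes. The complement subunits C1qb (74.1 ± 9.71 TPM) and C1qa (73.4 ± 14.8 TPM) were among the 3 highest. Olfml3, among the lower members, was uneven, with 11.6, 6.29, 4.04, 2.40, 11.02 and 7.24 TPM in WT water 1 to 6. The summed microglial level ran from 532 TPM in WT water 2 to 645 TPM in WT water 5. Border macrophage markers were lower, at a median of 1.93 TPM: the scavenger receptor Stab1 had 10.8 ± 2.15 TPM, the mannose receptor Mrc1 2.89 ± 0.433 TPM, Cbr2 2.48 ± 0.912 TPM and Ms4a7, the lowest, 0.557 ± 0.283 TPM.

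Of the vascular and meningeal classes endothelial markers were highest. They had a median of 25.4 TPM, led by the glucose transporter Slc2a1 (84.97 ± 10.4 TPM), the tight junction protein Cldn5 (76.1 ± 11.2 TPM) and Itm2a (70.6 ± 4.89 TPM). The VEGF receptor Kdr was lowest (7.77 ± 1.16 TPM). Mural markers had a median of 7.82 TPM, from Vtn (121 ± 13.2 TPM), Rgs5 (59.5 ± 5.53 TPM) and the smooth muscle actin Acta2 (14.1 ± 5.47 TPM) to the contractile protein Cnn1 (0.780 ± 0.461 TPM). Fibroblast and meningeal markers had a median of 16.3 TPM, led by Ptgds, which oligodendrocytes also make. The proteoglycan Dcn was at 28.2 ± 8.11 TPM and Lum, the lowest, at 2.24 ± 0.727 TPM. The growth factor Igf2, in a merged model whose neighbour Gm49394 has no entry, was at 26.02 ± 4.70 TPM. Dcn had 35.7, 15.8, 30.3, 20.5, 33.1 and 33.8 TPM in WT water 1 to 6, lowest in WT water 2, where none of the 12 markers lay above its own mean.

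The remaining classes were low. Thalamic markers had a median of 8.76 TPM, with Calb2, the nuclear receptor Rora (20.2 ± 1.64 TPM) and Slc17a6 highest and the homeobox gene Gbx2 lowest (0.470 ± 0.330 TPM). Hippocampal markers had a median of 7.07 TPM, with Wfs1 (132 ± 13.8 TPM), Cabp7 (39.5 ± 3.14 TPM) and Homer3 (13.2 ± 1.08 TPM) highest and Iyd lowest (0.111 ± 0.0933 TPM). Ependymal markers had a median of 3.64 TPM, from Rarres2 (14.6 ± 2.72 TPM), Rsph1 (5.32 ± 2.83 TPM) and Cfap44 (4.05 ± 1.03 TPM) to Pifo (1.06 ± 0.616 TPM). Blood leukocyte markers had a median of 0.291 TPM, with Cd4 at 3.58 ± 1.06 TPM, Ptprc at 2.23 ± 0.646 TPM and S100a9 at 1.60 ± 1.95 TPM. Ly6g and Ncr1, markers of neutrophils and natural killer cells, were listed at 0 in all 6 libraries. In all, 15 of the 24 classes had a median marker level of 10 TPM or more.

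Neighbouring classes in this order were not always separated. Pan-neuronal markers lay above astrocyte markers in 6 of 6 libraries and astrocyte above oligodendrocyte markers in 5 of 6. Oligodendrocyte markers lay above excitatory markers in 4 of 6, striatal above layer 5 markers in 3 of 6 and precursor above layer 6 markers in 3 of 6. Except for the first, none of these pairs had the same order in all 6 libraries.

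**Figure D2:**
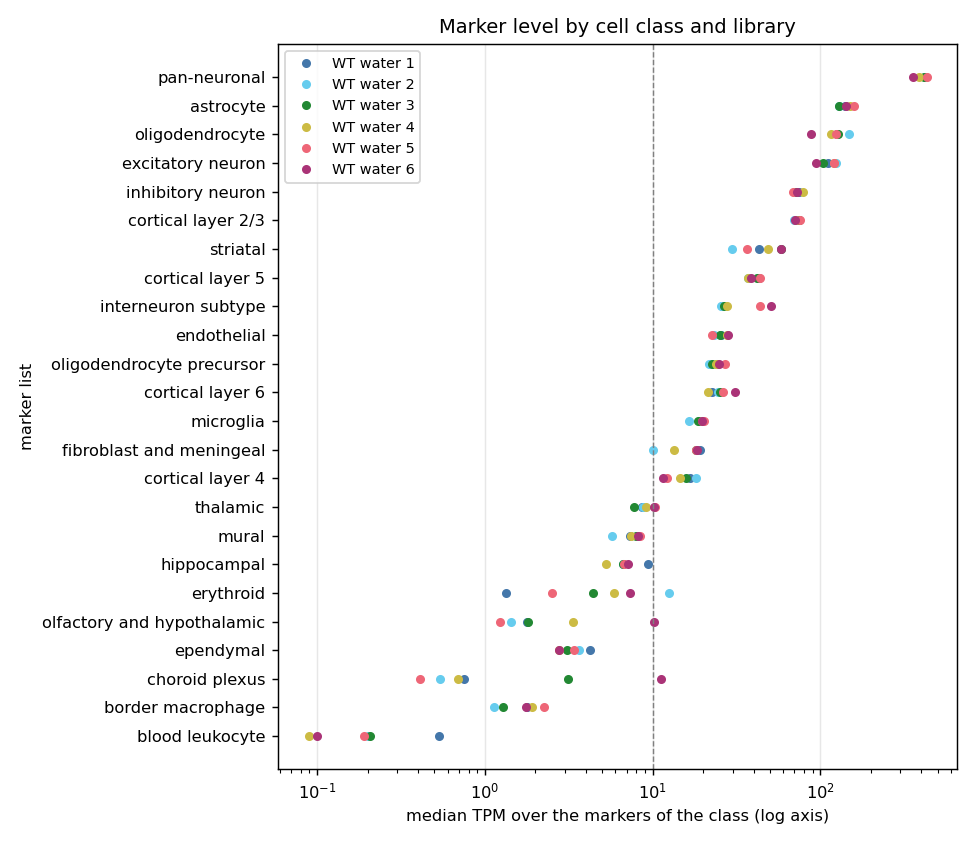
Median TPM over the markers of each of 24 cell class lists (rows, log axis) in each WT water library (coloured points), with 10 TPM as a dashed line. Pan-neuronal, astrocyte, oligodendrocyte and excitatory markers are highest, and the choroid plexus points spread most, from under 1 TPM to over 10 TPM in WT water 6.

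The use of gene families was read as each member's share of the family's summed TPM, in 66 families with 356 of 359 listed members on an entry. The leading member held over 50% of the sum in 37 families and over 90% in 4. These were the endoplasmic reticulum calcium pump Atp2a2 (98.3 ± 0.240%), the vesicular glutamate transporter Slc17a7 (97.4 ± 0.569%), the hexokinase Hk1 (94.2 ± 1.02%) and the creatine kinase Ckb (91.7 ± 1.03%). The SD of the leading share between libraries had a median of 2.11 percentage points. The same member led in all 6 libraries in 54 families. In the other 12 the first and second member changed places in at least 1 library.

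Calmodulin, the calcium sensor of most neuronal calcium signalling, is encoded by several genes for the same protein. Calm2 held 51.6 ± 2.19% and Calm3 36.4 ± 1.68% of the family's TPM, and Calm2 was ahead in all 6 libraries. Calm2 had 2428, 2707, 2853, 2619.5, 2232 and 2190.5 TPM in WT water 1 to 6. Calm3 had 1865, 2016, 1866, 1644, 1712 and 1495 TPM, and no library of Calm3 reached the lowest of Calm2. Of the more divergent family members, Calml4 was at 1.42 ± 1.81 TPM (0.806 ± 1.11 TPM without WT water 6) and Calml3 was at 0 in every library. The coding sequences are shown because they code for the same protein yet carry enough differing bases to tell the genes apart. Calm2 and Calm3 differ at 78 of 450 coding bases, 74 of them at the third codon position. None of the 149 residues differs. The first 90 coding bases are shown 5′ to 3′ from GENCODE M21 transcripts, with the 15 positions at which they differ in capitals:
Calm2 (chr17:87433412-87446935, minus strand): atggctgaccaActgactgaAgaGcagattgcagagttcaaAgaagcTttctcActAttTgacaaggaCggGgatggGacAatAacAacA
Calm3 (chr7:16915379-16924114, minus strand): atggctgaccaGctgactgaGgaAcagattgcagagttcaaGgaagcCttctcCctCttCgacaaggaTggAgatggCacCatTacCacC

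Among cytoskeletal families, Tuba1b held 80.1 ± 4.68% of alpha-tubulin, in the merged model named above, and Tuba4a 14.1 ± 3.51%, while Tuba3a and Tuba3b, testis forms, were under 0.1 TPM. Beta-tubulin was more evenly divided, with Tubb4a at 28.5 ± 2.01% and Tubb2a at 22.4 ± 1.13% and the platelet form Tubb1 at 0.0508 TPM. The leading share varied most for actin, where Actg1 held 52.4 ± 9.22% and Actb 45.8 ± 9.60%. Actb had 814, 1012, 819, 788, 827 and 401 TPM in WT water 1 to 6, lowest in WT water 6. Without WT water 6 the shares were nearly equal, with Actg1 at 49.1 ± 5.10% and Actb at 49.2 ± 5.202%. The cardiac form Actc1 was at 0.0314 TPM. Nefl (48.2 ± 1.32%) and Ina (22.9 ± 0.758%) led the intermediate filaments of axons. Map1a (24.3 ± 1.42%) and Map4 (21.6 ± 1.19%) led the microtubule-associated proteins, and Stmn1 (39.3 ± 1.55%) and Stmn3 (37.2 ± 0.848%) the stathmins. In each of these 2 families the leader changed in 1 library.

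Most subunits of the fast transmitter receptors had the same leader in all 6 libraries. Gria2 (36.2 ± 0.799%) and Gria1 (28.7 ± 1.51%) led the AMPA receptors, and Gria2, the subunit that limits calcium entry, led in every library. Grin1, the obligatory NMDA receptor subunit, held 70.7 ± 3.65% and Grin2b 8.25 ± 1.23%. Grik5 held 68.7 ± 2.92% of the kainate receptors and Grik3 12.5 ± 0.955%. Among metabotropic glutamate receptors Grm5 (31.1 ± 1.66%) and Grm3 (16.5 ± 1.46%) led and Grm6, a retinal form, was at 0. Of the GABA-A receptor, Gabra3 held 22.3 ± 1.04% of the alpha subunits. Gabrb2 held 32.7 ± 2.38% of its beta subunits and Gabrd 37.4 ± 2.44% of its gamma and delta subunits. Gabra6, a cerebellar subunit, was at 0.0236 TPM. Gabbr1 held 74.7 ± 1.52% of GABA-B and Gabbr2 25.3 ± 1.52%.

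Of the receptors for modulators, Htr2c (25.7 ± 6.15%) led the serotonin receptors ahead of Htr2a (13.9 ± 1.29%), and its share ran from 15.99 to 33.4%. Htr3b was at 0.0413 TPM. Chrm1 (41.3 ± 3.63%) and Chrm4 (30.3 ± 4.86%) led the muscarinic and Chrnb2 (39.9 ± 2.004%) and Chrna4 (32.98 ± 2.85%) the nicotinic receptors, where Chrna9, a hair cell subunit, was at 0.00776 TPM. Adrb1 (30.6 ± 2.97%) and Adra1d (29.1 ± 4.66%) were close among adrenergic receptors, where Adrb1 led in 3 of 6 libraries. Without WT water 5, Adra1d led with 30.2 ± 4.32%, against 29.8 ± 2.71% for Adrb1. Drd1 (49.5 ± 3.84%) and Drd2 (45.6 ± 4.11%) were close among dopamine receptors, where Drd1 led in 3 of 6.

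Channels and pumps differed in how much of the sum their first member held. Hcn2 held 83.9 ± 1.95% of the HCN pacemaker channels. Scn8a (37.3 ± 2.86%) and Scn2a (33.5 ± 3.93%) shared most of the sodium channel sum, with Scn8a first in 5 of 6 libraries and the muscle channel Scn4a at 0.00349 TPM. Cacna1a (28.1 ± 1.80%) led the calcium channels ahead of Cacna1e (14.5 ± 0.841%). Kcna2 (42.4 ± 0.879%) led the Kv1 channels ahead of Kcna1 (25.5 ± 2.49%), and Kcnc1 (24.2 ± 1.69%) the Kv2 to Kv4 channels. Atp1b1 held 71.9 ± 0.761% and Atp1b2 21.6 ± 0.890% of the accessory sodium pump subunits, where Atp1b4 was at 0.00341 TPM. Of the plasma membrane calcium pumps Atp2b1 held 49.7 ± 2.81% and Atp2b2 27.97 ± 2.46%, and Atp2a3 was second to Atp2a2 at 1.71 ± 0.245%.

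In the release machinery, several families were led by 1 member and others shared between a pair. Vamp2 held 81.9 ± 1.39% of the synaptobrevins and Vamp1 8.87 ± 1.58%. Snap25 held 88.7 ± 1.14% and Snap47 10.04 ± 1.10% of the SNAP-25 family, and Rab3a 84.3 ± 0.384% and Rab3c 10.3 ± 0.457% of the Rab3 vesicle GTPases. Stx1a held 38.9 ± 3.42% of the syntaxins. Syn1 (56.5 ± 1.05%) and Syn2 (42.6 ± 1.02%) shared most of the synapsins and Cplx1 (54.8 ± 1.995%) and Cplx2 (44.4 ± 1.91%) most of the complexins. Within each pair the first led in all 6 libraries. Cplx4, a retinal form, was at 0.0855 TPM. Syt1, the calcium sensor of fast release, held 35.3 ± 3.53% of the synaptotagmins ahead of Syt11 (19.3 ± 0.804%), and Sncb held 69.9 ± 0.842% of the synucleins. On the postsynaptic side Dlg4, which encodes PSD-95, held 57.1 ± 3.31% of its family and Dlg2 19.5 ± 2.33%. Nlgn2 held 85.9 ± 1.88% and Nlgn1 14.1 ± 1.88% of the measured neuroligins (Nlgn3 had no entry). Nrxn2 held 56.4 ± 2.22% of the neurexins. Shank1 (29.8 ± 2.80%) and Homer1 (29.4 ± 4.57%) changed places in 2 libraries, and Homer1 led by mean without WT water 1 (30.1 against 28.9%) or without WT water 6 (30.6 against 29.7%). Camk2a held 69.5 ± 1.54% of CaMKII and Camk2b 16.1 ± 1.10%. The calcineurin subunits were led by Ppp3r1 (47.2 ± 2.51%), in a merged model whose neighbour Wdr92 has no entry, and Ppp3ca (39.00 ± 1.49%).

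Transporters and energy enzymes often have separate forms in neurons and glia. Slc1a2 (58.7 ± 3.35%) and Slc1a3 (31.96 ± 2.93%), the glutamate transporters of astrocytes, led their family and Slc1a7 was at 0.0984 TPM. Slc6a11 held 26.7 ± 3.07% of the GABA transporters. Slc12a5, the neuronal chloride exporter, held 60.5 ± 3.54% of the cation-chloride cotransporters, with the kidney form Slc12a1 at 0.0712 TPM. The glucose transporters Slc2a1 (42.1 ± 7.12%), of endothelium and glia, and Slc2a3 (40.1 ± 7.32%), of neurons, were close by mean, with Slc2a1 ahead in 2 of 6 libraries. Without WT water 6, Slc2a3 led with 43.00 ± 2.04% and Slc2a1 held 39.4 ± 2.65%. The liver form Slc2a2 was at 0.0365 TPM. Slc16a1 (61.9 ± 4.81%) and Slc16a7 (28.5 ± 5.17%) led lactate transport, and Aldoa (77.7 ± 2.03%) and Aldoc (22.1 ± 2.02%) the aldolases. Eno2 (51.1 ± 4.03%) and Eno1 (47.8 ± 4.02%) led the enolases, and Ldhb (67.4 ± 4.38%) and Ldha (32.6 ± 4.38%) lactate dehydrogenase, whose testis form Ldhc was at 0. Hkdc1 was second among hexokinases at 3.87 ± 0.816% and Ckmt1, the mitochondrial form, second among creatine kinases at 8.28 ± 1.03%.

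Of the other families, Aplp1 (45.7 ± 0.968%) led the amyloid precursor family ahead of App (30.2 ± 1.88%). Clu (47.6 ± 7.40%) and Apoe (40.4 ± 9.12%), the lipid carriers of glia, led the apolipoproteins with a share that varied most after actin, and Apob was at 0.0142 TPM. Mt1 (46.8 ± 1.75%) and Mt3 (37.4 ± 2.36%) led the metallothioneins, with Mt4 at 0. Gja1 (48.9 ± 6.69%) and Gjb6 (19.4 ± 1.79%), both astrocytic, led the connexins, with the lens form Gja3 at 0.0773 TPM. Aqp4, the water channel of astrocyte end-feet, held 72.3 ± 4.85% ahead of Aqp11 (22.5 ± 5.15%), with Aqp8 at 0.00628 TPM. Hspa8 (71.4 ± 3.72%) and Hspa4 (10.2 ± 1.54%) led HSP70, and Hsp90ab1 (68.2 ± 2.41%) and Hsp90aa1 (31.8 ± 2.41%) HSP90. Ywhah (25.8 ± 0.399%) and Ywhaz (21.9 ± 0.537%) led the 14-3-3 adaptors, and Eef1a1 (67.4 ± 1.31%) and Eef1a2 (32.6 ± 1.31%) the elongation factors. Ubb (42.5 ± 2.71%) led the ubiquitin genes, and Cox6a1 (31.1 ± 0.750%) and Cox4i1 (27.3 ± 0.968%) the cytochrome c oxidase forms. Dnmt1 (52.2 ± 3.28%) and Dnmt3a (46.7 ± 3.84%) led the DNA methyltransferases. Cox4i1 stands on a merged model with a neighbour that has no entry.

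**Figure D3:**
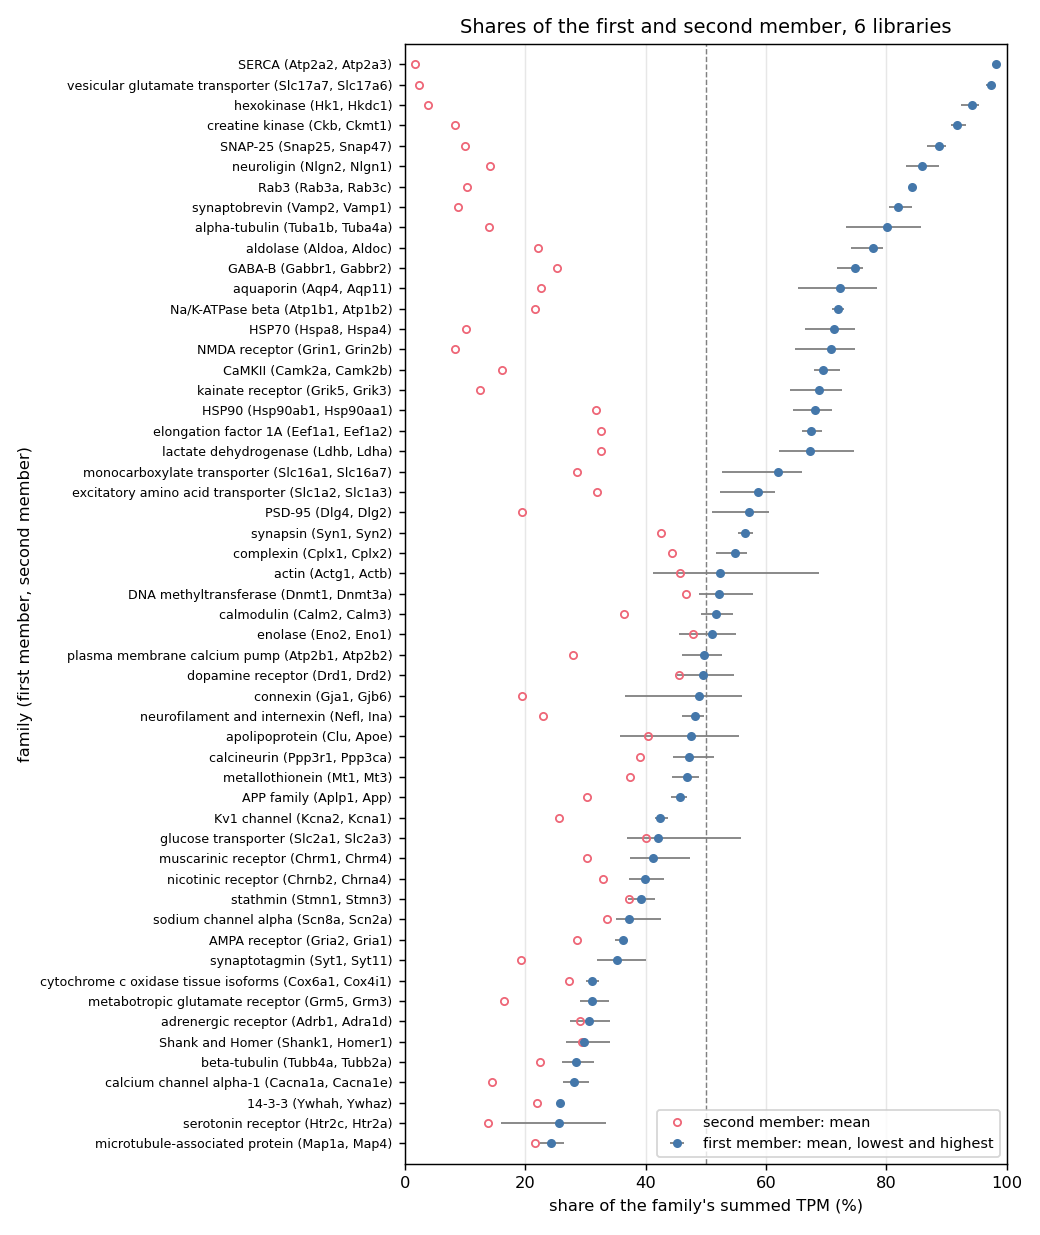
Share of the family's summed TPM held by the first member (filled points, mean with lowest and highest library) and the second member (open points, mean) of 54 of the 66 gene families, with 50% as a dashed line. Atp2a2 and Slc17a7 hold over 97%, and Actg1 and Actb overlap.

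The immediate early genes, which neurons switch on within minutes of activity, varied together between libraries. Their list (22 genes) lay -0.37, 0.12, 0.31, 0.24, -0.02 and -0.28 from its mean on the log2 scale in WT water 1 to 6. In WT water 3 all 22 genes lay above their own mean and in WT water 4, 20 of 22 did. The counts were 2 of 22 in WT water 1 and 3 of 22 in WT water 6. Egr2 spread most (SD 0.61 on the log2 scale) with 9.10, 19.7, 27.5, 28.2, 23.7 and 14.7 TPM in WT water 1 to 6, followed by Nr4a3 (SD 0.56) and Ier2 (SD 0.45). Jun (SD 0.22), the neurotrophin Bdnf (SD 0.23) and Egr1 (SD 0.26) spread least. Arc, a postsynaptic regulator and the highest gene of the list by mean, had 246, 408, 467, 441, 294 and 241 TPM, high in WT water 2, 3 and 4 and low in WT water 1, 5 and 6.

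Clock genes, whose level depends on the hour of collection, spread less: the median SD of the list was 0.20 on the log2 scale, against 0.34 for the immediate early genes. The output factor Tef had an SD of 0.07, the repressor Bhlhe40 0.09 and Cry2 0.11 on the log2 scale, while Per1 (0.38), Hlf (0.33) and Dbp (0.29) spread most. Per1, a light- and time-driven repressor, had 46.3, 62.3, 73.3, 87.7, 95.3 and 82.9 TPM in WT water 1 to 6, lowest in WT water 1. Genes used as laboratory references were not equally even: Hprt (SD 0.05, 223, 229 and 243 TPM as lowest, median and highest), Gusb (SD 0.06) and Eef1a1 (SD 0.07) spread least. Actb (SD 0.46) and B2m (SD 0.29) spread most. Actb was lowest in WT water 6, as given above.

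Of the mitochondrially encoded genes, mt-Nd1 (SD 0.14), mt-Nd2 (SD 0.17) and mt-Nd3 (SD 0.19) spread least. The most uneven were mt-Atp8 (SD 1.57) and mt-Co2 (SD 1.05), which share their reads or their position with other genes, and mt-Nd6 (SD 0.28). The first of these, mt-Atp8, had 553, 1111, 330.1, 259, 56.7 and 102 TPM in WT water 1 to 6. Of the sex-linked genes, Xist, the RNA of the inactive X chromosome, had 214, 223 and 259 TPM as its lowest, median and highest library. Ddx3y, Eif2s3y, Kdm5d and Uty of the Y chromosome were listed at 0 in all 6.

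Spread between libraries was measured as the SD of log2(TPM + 0.5) for the 18633 genes at 0.5 TPM or more by mean. Its median was 0.19, which equals a factor of 1.14, and 0.17 without WT water 6. Above 0.5 lay 1796 genes (9.64%) and below 0.1 lay 3227 (17.3%). The median fell with abundance, at 0.38 for genes of 0.5 to 1 TPM, 0.31 from 1 to 5 TPM, 0.21 from 5 to 10 TPM, 0.14 from 10 to 50 TPM and 0.12 above 50 TPM. The SD that counting alone gives at the estimated depth was 0.25 in the lowest class, against the 0.38 measured there, and 0.00792 above 500 TPM, against 0.12. Gene classes differed: 686 of 14236 protein-coding genes (4.82%), 345 of 2006 long noncoding genes (17.2%) and 324 of 1054 pseudogenes (30.7%) had an SD above 0.5, and their median levels of 22.8, 1.75 and 1.44 TPM differed too.

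**Figure D4:**
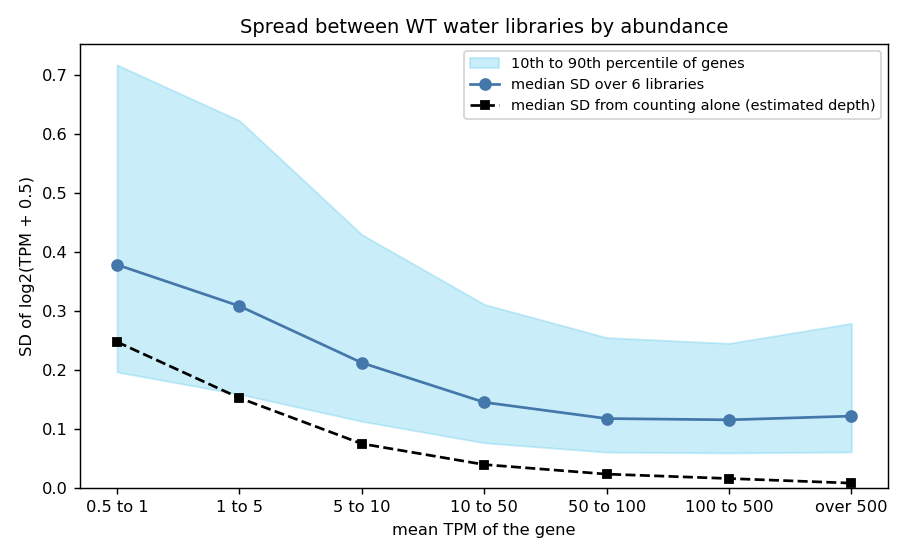
SD of log2(TPM + 0.5) over the 6 WT water libraries by mean TPM of the gene: median (line with circles), 10th to 90th percentile of genes (band) and the SD from counting alone at the estimated depth (dashed). The median falls to 0.12 above 50 TPM and stays close to that value in the higher classes.

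The most even genes above 50 TPM had several kinds of function. Among the 10 with the smallest SD of 4063 were Echs1, an enzyme of mitochondrial fatty acid oxidation (SD 0.01, mean 73.2 TPM), the mitochondrial ribosomal protein Mrpl4 (SD 0.02) and the clathrin adaptor subunit Ap1m1 (SD 0.02). The others named were the ubiquitin ligase adaptor Ndfip1 (SD 0.02), the phosphatase catalytic subunit Ppp2ca (SD 0.02), the chaperonin subunit Cct3 (SD 0.02), the Ras pathway inhibitor Spred1 (SD 0.02) and the translin partner Tsnax (SD 0.02). The remaining 2 of the 10 were the protein-coding gene BC005537 and a predicted gene. The predicted gene stands on a merged model that overlaps the ribosomal protein gene Rpl19, which has no entry.

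Of the 20 genes with the largest SD among 12228 genes at 5 TPM or more, 8 were predicted genes and 12 were named ones. Ttr, the thyroid hormone carrier of choroid plexus, led (SD 3.68) with 5.92, 6.44, 471, 8.66, 9.21 and 2151 TPM in WT water 1 to 6. WT water 6 and WT water 3 were high and the other 4 were under 10 TPM. The whole choroid plexus list moved with it. All 10 markers were highest in WT water 6 and above their own mean in WT water 3, and their sum was 14.5, 11.9, 501, 15.5, 17.2 and 2267 TPM in WT water 1 to 6. The Wnt and BMP antagonist Sostdc1 had 1.37, 0.912, 6.75, 1.12, 1.90 and 30.7 TPM. The hormone coreceptor Kl had 2.54, 1.83, 6.93, 2.05, 2.51 and 24.00 TPM and the transporter Slc4a5, the lowest member, 0.0171, 0.0502, 1.01, 0.0854, 0.0670 and 4.52 TPM. The median of the choroid plexus markers was 2.69 TPM with all libraries and 0.980 TPM without WT water 6.

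WT water 6 held 22 entries that reached 5 TPM in it with at least 4 times the next highest library. Of the 22, 21 were protein-coding, a share near that of all entries: 10379 of 11045 that reached 10 TPM in some library were protein-coding. WT water 1 held 11, WT water 5 8, WT water 2 and WT water 4 2 each and WT water 3 none. These genes and the lists in this paragraph were chosen after their values were seen. Among the entries of WT water 6 were choroid plexus genes, genes of the olfactory bulb and of hypothalamic neurons, and others of none of these kinds. The dopamine-synthesising enzyme Th had 2.34, 2.54, 2.34, 3.38, 1.73 and 31.1 TPM in WT water 1 to 6. The olfactory marker protein Omp had 0.622, 0.657, 2.003, 0.230, 0.0805 and 11.03 TPM and the transcription factor Eomes 0.0975, 0.145, 0.0237, 1.01, 0.0730 and 9.41 TPM. Each was at least 4 times the next library in WT water 6. Over the olfactory bulb list of 9 measured genes, 8 were highest in WT water 6, where the list lay 1.94 above its mean on the log2 scale. The neurohypophyseal hormone genes Avp (1.95, 1.78, 4.23, 6.83, 5.38 and 35.5 TPM) and Oxt (1.63, 0, 1.47, 3.82, 3.05 and 27.4 TPM) were highest in WT water 6 as well. The class list of olfactory and hypothalamic markers, whose highest members were Trh (10.5 ± 7.73 TPM), Avp and Th and whose lowest was Hcrt (0.382 ± 0.321 TPM), had a median of 3.77 TPM. It was 2.23 TPM without WT water 6. Trh then averaged 7.87 ± 4.70, Agrp 4.16 ± 1.17, Avp 4.03 ± 2.19 and Th 2.47 ± 0.595 TPM. Striatal markers were also high in WT water 6 and low in WT water 2. Penk, an opioid precursor, had 190.5, 119, 248, 230.4, 178 and 226 TPM in WT water 1 to 6 and Ppp1r1b, a dopamine-regulated phosphatase inhibitor, 171, 114, 226, 158, 189.9 and 299.5 TPM. These 2 genes and Rasd2 (105 ± 16.4 TPM) led the list and Isl1 was lowest (2.17 ± 1.32 TPM). Of the 14, 13 lay above their mean in WT water 6 and none in WT water 2. What part tissue of these regions in the dissected cortex had in these values was not tested.

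Other libraries had signals of their own. Among the 12 named genes with the largest SD, the immunoglobulin heavy chain gene Igha had 0, 1.14, 0.906, 0.498, 75.4 and 0.825 TPM in WT water 1 to 6. A heavy chain variable segment, Ighv1-18, was at 46.8 TPM in WT water 5 and at 0 in the others. The light chain gene Igkc had 2.93, 2.58, 1.46, 1.47, 70.4 and 58.9 TPM, high in WT water 5 and WT water 6. Immunoglobulin RNA is made by plasma cells and by other B cells. The heavy chain gene Ighm, outside the naming rule and named after its values were seen, was present in every library. It had 28.1, 12.1, 11.3, 47.5, 39.8 and 54.5 TPM in WT water 1 to 6. The pituitary hormone Prl had 30.6, 2.12, 0.206, 1.29, 3.49 and 0.191 TPM, highest in WT water 1. There growth hormone (Gh) was also highest at 10.9 TPM. The pituitary list lay 1.49 above its mean in WT water 1, but it was chosen after these values were seen and adds no separate support. Erythroid markers, which report on blood left after perfusion, had a median of 5.66 TPM. The globin Hbb-bs had 8.13, 47.2, 15.5, 25.99, 6.31 and 28.9 TPM in WT water 1 to 6. Hba-a1 (16.4 ± 9.38 TPM) and Hba-a2 (5.66 ± 3.99 TPM) followed, and Alas2, an enzyme of heme synthesis, was lowest (0.394 ± 0.275 TPM). Of the 5 markers, 4 were highest in WT water 2. All hemoglobin genes together held 0.00467 ± 0.00295% of TPM.

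**Figure D5:**
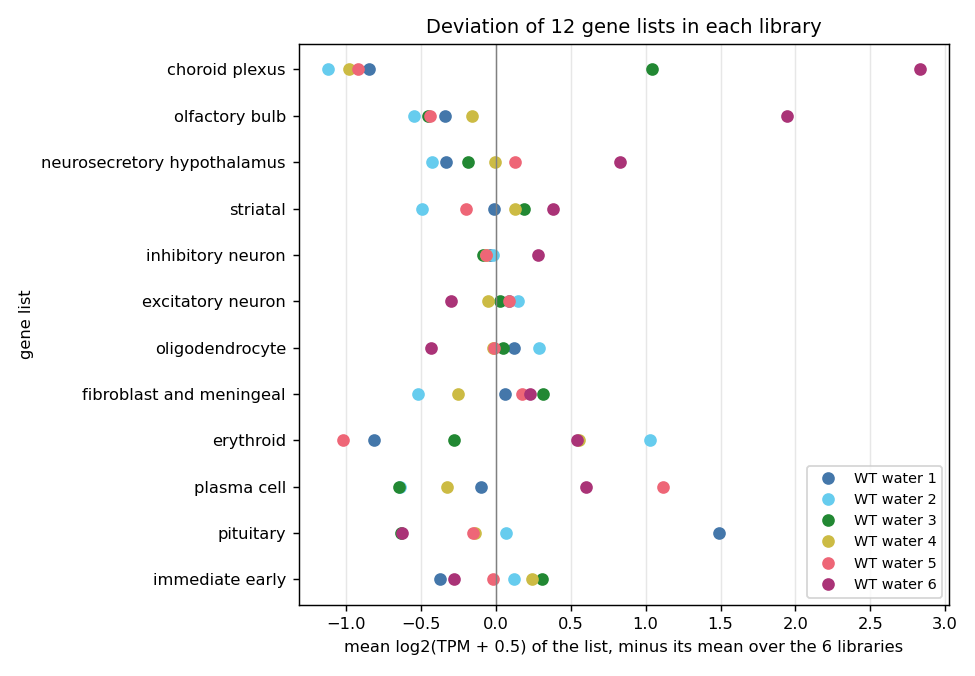
Mean log2(TPM + 0.5) of 12 gene lists in each WT water library (coloured points), as the difference from the list's mean over the 6 libraries. Choroid plexus reaches 2.83 and olfactory bulb 1.94 in WT water 6, plasma cell 1.12 in WT water 5 and pituitary 1.49 in WT water 1, while immediate early genes lie between -0.37 and 0.31. The olfactory bulb, neurosecretory hypothalamus, plasma cell and pituitary lists were chosen after the values were seen.

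The other named genes were mostly read as present or nearly absent by library. The ribosomal protein pseudogene Rps3a3 had 107, 118, 124, 249, 104 and 0.595 TPM in WT water 1 to 6, near 0 only in WT water 6. Rps2-ps10 had 394 TPM in WT water 1 and 2.80 to 4.23 TPM in the others. Eno1b, a retrocopy of an enolase gene, had 66.3, 64.5, 74.3, 1.25, 65.00 and 1.15 TPM, low in WT water 4 and WT water 6. The actin regulator Baiap2l1 had 17.8, 0.819, 22.9, 20.1, 0.862 and 1.82 TPM, high in 3 libraries. Hist1h2al, annotated as a processed pseudogene, had 0, 6.77 and 12.02 and Actr3-ps 0.236, 8.50 and 17.2 TPM as lowest, median and highest. Of 11045 entries that reached 10 TPM in some library, 47 (0.426%) had a highest value at least 20 times the lowest. They made up 17 of 141 pseudogenes (12.1%) and 18 of 10379 protein-coding genes (0.173%). Pseudogenes are near-identical to their parent genes, and how the authors' counting split their reads is not given, so these levels are uncertain. Nrn1, a neuronal growth gene outside the naming rule and named after its values were seen, showed a smaller step, with 259, 271, 279.9, 59.3, 259 and 41.9 TPM, in the same 2 libraries in which Eno1b was low.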

How the data were processed

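Poly(A) RNA was sequenced as paired-end reads on a NextSeq or a NovaSeq instrument, per the labels, which do not assign libraries to instruments. Fastp, STAR and DESeq2 were used with GRCm38 (mm10), per the submitters' processing notes, and the sources used here give neither tool versions nor an annotation release. Both tables, 1 of TPM and 1 of FPKM, were deposited by the authors, per the file headers. Merged model IDs stand on 25412 of the 53832 entries and can join neighbouring genes. A merged model of a nuclear gene was named as such where an annotated neighbour without an entry lay within 20 kb. Whether such a model in fact joins its neighbour was not tested.

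From the deposited TPM the mean, SD, lowest, median and highest of the 6 libraries were computed per entry, and the SD of log2(TPM + 0.5) for genes at 0.5 TPM or more by mean. A class level is the median over its markers, and a family share is a member's part of the summed TPM. Counts of genes above or below their own mean refer to the mean of log2(TPM + 0.5). The matching share of all genes in each library is not given beside these counts. Depth was estimated from the smallest step of the deposited FPKM as 33.01 ± 0.383 M fragments (32.6 to 33.5). Annotation and sequences came from GENCODE M21 (GRCm38). No test between groups was made, since only 1 group was described; Dixon's criterion for a library far from the others was applied to single measures.

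Genes were named by rule: the 20 most abundant entries; per class the 3 highest, the lowest and any at 0; per family the first and second member and any under 0.1 TPM; the 20 most variable genes above 5 TPM and the 10 least variable above 50 TPM, predicted genes counted only; and the 3 most and least variable of 5 groups. Members and lists were chosen with earlier results of these data known, and the pituitary, plasma cell, olfactory bulb and neurosecretory lists after the values were seen. Alternatives were other totals, thresholds, pseudocounts, filters and scalings, FPKM in place of TPM, and each library left out. Results on some genes that the rules name are not reported here. The calculations were tested on simulated data. Python 3.11.15, NumPy 2.4.6, pandas 2.3.3 and matplotlib 3.10.9 were used.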

Additional observations from a re-analysis of the deposited data

Results flagged for a closer look

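In 389 measures, the value of 1 library was set against the other 5: 46 measures had a highest or lowest library whose gap to the nearest other library over the whole range exceeded Dixon's critical value for 6 samples, and 25 of these were values of WT water 6. For normally distributed values, chance gives such a gap in about 1 in 20 groups, which is 19.4 of the measures. The values were used as TPM or shares and their distribution was not tested, so the 46 cannot be judged against this number. Genes of 1 cell type or region are not independent measures, and most were named for their level or spread.

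Of the marker lists, the summed choroid plexus level was 2267 TPM in WT water 6 (11.9 to 501 in the other 5), the olfactory and hypothalamic level 145 TPM in WT water 6 (20.6 to 30.8 in the other 5), and the layer 6 level 378 TPM in WT water 5 (309.5 to 333 in the other 5). Of the family shares, Slc1a2 held 52.3% of the excitatory amino acid transporters in WT water 6 (58.5 to 61.6 in the other 5) and Slc2a1 55.8% of the glucose transporters (36.9 to 43.1 in the other 5). In WT water 5, Gabbr1 held 71.8% of the GABA-B receptors (74.7 to 76.2 in the other 5) and Slc16a1 52.7% of the monocarboxylate transporters (61.8 to 66.02 in the other 5).

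Single genes far above the rest in WT water 6 included markers of choroid plexus, of other brain regions and of GABA neurons. Avp was at 35.5 TPM (1.78 to 6.83 in the other 5), Calb2 was at 102 TPM (24.7 to 42.9 in the other 5) and Enpp2 was at 491 TPM (149.8 to 254 in the other 5). Eomes was at 9.41 TPM (0.0237 to 1.01 in the other 5), Gad1 was at 494 TPM (293 to 344 in the other 5) and Kl was at 24.00 TPM (1.83 to 6.93 in the other 5). Omp was at 11.03 TPM (0.0805 to 2.003 in the other 5), Oxt was at 27.4 TPM (0 to 3.82 in the other 5) and Slc4a5 was at 4.52 TPM (0.0171 to 1.01 in the other 5). Slc6a11 was at 184 TPM (103 to 123 in the other 5), Sostdc1 was at 30.7 TPM (0.912 to 6.75 in the other 5) and Tac1 was at 148 TPM (43.5 to 70.03 in the other 5). Th was at 31.1 TPM (1.73 to 3.38 in the other 5) and Ttr was at 2151 TPM (5.92 to 471 in the other 5). Some genes were far below the rest in WT water 6. Actb was at 401 TPM (788 to 1012 in the other 5), Slc2a3 was at 46.1 TPM (82.5 to 97.8 in the other 5) and Sncb was at 659 TPM (802 to 861 in the other 5). Stx1a was at 239 TPM (329 to 383 in the other 5).

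The next values stood apart in WT water 1. Actg1 was at 589.6 TPM (896 to 988 in the other 5), Gh was at 10.9 TPM (0 to 1.60 in the other 5) and Prl was at 30.6 TPM (0.191 to 3.49 in the other 5). Rarres2 was at 19.7 TPM (11.9 to 14.6 in the other 5), Rps2-ps10 was at 394 TPM (2.80 to 4.23 in the other 5) and Rsph1 was at 10.9 TPM (3.66 to 5.59 in the other 5). The next values stood apart in WT water 2. Hlf was at 128 TPM (68.4 to 84.8 in the other 5). The next values stood apart in WT water 3. Dnmt3a was at 21.7 TPM (30.97 to 35.7 in the other 5). The next values stood apart in WT water 4. Grm3 was at 47.5 TPM (42.5 to 44.2 in the other 5). The next values stood apart in WT water 5. Atp1b2 was at 528 TPM (461 to 484 in the other 5), Gabrd was at 90.3 TPM (101 to 107 in the other 5) and Igha was at 75.4 TPM (0 to 1.14 in the other 5). Ighv1-18 was at 46.8 TPM (at 0 in the other 5).

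Genes under 0.5 TPM stood apart at levels near the limit of detection, and counting error was not separated from other spread. Actc1 was at 0.116 TPM in WT water 6 (0 to 0.0430 in the other 5). Aqp8 was at 0.0377 TPM in WT water 2 (at 0 in the other 5). Atp1b4 was at 0.0204 TPM in WT water 6 (at 0 in the other 5). Chrna9 was at 0.0466 TPM in WT water 2 (at 0 in the other 5). Gabra6 was at 0.107 TPM in WT water 4 (0 to 0.0347 in the other 5). Htr3b was at 0.214 TPM in WT water 2 (0 to 0.0342 in the other 5). Slc1a7 was at 0.246 TPM in WT water 5 (0.0285 to 0.106 in the other 5). Tubb1 was at 0.244 TPM in WT water 6 (0 to 0.0610 in the other 5).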

How the results depend on the processing

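No paired analysis was possible because only 1 group was described. Of 102 alternative values of the 10 summary results, 75 stayed within their spread or within 1.5 times the count. The latter is a wide range for the number of classes at 10 TPM (15) and of families with a leader above 50% (37). Both stayed within it under every alternative run. The class count was 19 with the mean over markers and 16 without mitochondrial, ribosomal protein and hemoglobin genes. The family count ran from 37 to 39. The number of entries at 1 TPM or more was 16880 after mitochondrial, ribosomal protein and hemoglobin genes were left out and 13626 among protein-coding entries; at 0.5 TPM it was 18636 and at 5 TPM 12222. Under the same 2 changes of the total, the 10 most abundant entries held 7.71% and 10.6% of TPM, the 100 most abundant 19.96% and 22.6%, and 1036 and 868 entries held 50%. The mitochondrial share was 8.58% over the mRNA symbols alone and 15.04% with the chromosome 1 copies, an alternative chosen after seeing the data. The median SD was 0.22 with genes from 0.1 TPM, 0.17 with genes from 1 TPM and 0.15 in FPKM, and 0.17 to 0.19 with 1 library left out. The count of genes with an SD above 0.5 was 2998 with a pseudocount of 0.1, 989 with 1, 2729 with genes from 0.1 TPM or with no filter, 1197 with genes from 1 TPM, 577 in FPKM and 1583 to 1874 with 1 library left out. FPKM are smaller numbers than TPM, by 2.80 at the median, so the same pseudocount weighs more. The median correlation was 0.971 and 0.985 with pseudocounts of 0.1 and 1, 0.984 from 0.1 TPM, 0.989 with no filter, 0.983 in FPKM and 0.980 to 0.982 with 1 library left out. The cause of the other differences was not tested. Depth limits the values under 1 TPM, where counting alone gives an SD of 0.25 against a median SD of 0.38.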

Other observations

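Groups of genes outside the cell classes and families also differed in level and evenness; their members were named after their values were seen. Of 21 neuropeptide and secretory granule genes, Pcsk1n, an inhibitor of the prohormone convertase, was highest at 1045 ± 74.03 TPM and Nts, the neurotensin precursor, lowest at 5.83 ± 3.03 TPM. Npy had 183, 205, 181, 202, 139 and 164 TPM in WT water 1 to 6, Vip 54.7, 60.1, 63.1, 72.97, 59.96 and 62.4 TPM and Vgf 339, 432, 471, 338, 355 and 289.5 TPM, while Tac1, the substance P precursor, had 70.03, 43.5, 67.3, 59.4, 57.3 and 148 TPM and was highest in WT water 6. Of 12 measured genes of a list of noncoding RNAs, Snhg11 (1365 ± 116 TPM, protein-coding by the annotation), Meg3 (1166 ± 66.6 TPM) and Rian (752 ± 105 TPM) were highest and Kcnq1ot1 lowest (0.588 ± 0.0548 TPM). Bc1, a noncoding RNA outside that list, was higher at 2040.1 ± 453 TPM. Meg3 and Rian are neighbours in an imprinted cluster. Their evenness differed, with SDs of 0.08 and 0.21 on the log2 scale. Malat1 averaged 247 ± 41.5 TPM, and Miat spread most of the group, with 81.2, 189, 78.8, 168, 88.3 and 138 TPM in WT water 1 to 6.

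The 13 heat shock and stress genes had a median level of 57.1 TPM and a median SD of 0.15 on the log2 scale, from 0.06 for the chaperone Hsph1 to 0.38 for the glucocorticoid-induced kinase Sgk1, and 12 of 13 lay above their own mean in WT water 3. The inducible chaperone gene Hspa1a had 14.5, 16.2, 16.9, 15.8, 13.4 and 13.1 TPM in WT water 1 to 6. Of 14 interferon-response genes 13 were measured, with a median level of 2.16 TPM and a median SD of 0.31; Ifi27 was highest (76.6 ± 7.32 TPM), followed by Ifitm3 (28.7 ± 6.41 TPM), and Mx1 lowest (0.332 ± 0.294 TPM). In WT water 5, 11 of the 13 lay above their own mean, in WT water 6, 10 of 13, and in WT water 1, none did. Over all genes the median SD was 0.12 at 50 to 100 TPM, the level of the stress list, and 0.31 at 1 to 5 TPM, the level of the interferon list. At low levels counting error takes a larger part of the SD, and its part here was not tested.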
